A study of Mus musculus with 24 samples.

Results

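The genes described here are the enzymes that oxidise, conjugate and detoxify chemicals, hormones and lipids, together with the antioxidant genes of the same defence: 70 genes, read by 71 probes, of 8750 features measured on a 2-colour Agilent mouse array. They were chosen by name: a single gene symbol in the platform annotation that begins with Cyp and a digit, Gst, Ugt, Sult, Aldh, Akr, Prdx, Gpx, Txn or Sod and a digit, or that is Cat, Nqo1, Hmox1, Mt1, Mt2 or Mt3, where the array held it. 1 gene that matched is not analysed here. Measured values played no part in the rule, and no filter on low values was applied, so all 70 were tested. The members fall into 23 cytochrome P450 genes, 11 glutathione transferases, 4 glucuronosyl- and sulfotransferases, 9 aldehyde dehydrogenases, 6 aldo-keto reductases, 6 enzymes that remove superoxide and peroxide, 6 genes of the thioredoxin group, and a last group of 5 with 3 metallothioneins, Nqo1 and Hmox1.

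The study asked which genes radiation induces in lung and skin of the inbred mice A/J, C57BL/6J and C3H/HeMs, which gives 3 strains. Lung was taken after 10 Gy of gamma rays to the chest, and skin of the hind leg, through its full thickness, after 30 Gy, at 1 h, 12 h and 72 h; control mice were not irradiated. Each of the 24 arrays carried RNA pooled from 3 female mice of 12 to 13 weeks, so each strain, tissue and time is 1 pool, and a time group of a tissue has 3 arrays, 1 per strain. The strains thus stand in for replicates in every comparison over time, and the 4 arrays of a strain in a tissue, the control and the 3 times, stand in for replicates in every comparison of strains. No pool was measured again, so the spread between mice of 1 strain is not in these data.

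Each array set the tissue RNA against a common reference, a mix of commercial RNA from 10 organs. A value below is the log2 ratio of tissue to reference, centred on the median of its array: 0 is the array's median, and a step of 1 is a doubling. Because the reference differs from gene to gene, a ratio of 1 gene says nothing of its level against another gene, and a low ratio can come from an organ that fills the reference. Lung RNA carried the green dye and skin RNA the red, so a ratio in lung set against a ratio in skin also sets 1 dye against the other; the differences within a tissue do not. Where values are listed for a strain, they run in the order control, 1 h, 12 h, 72 h.

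Cytochrome P450 enzymes insert oxygen into drugs, steroids, retinoids and fatty acids, and the transferases then couple the products to glutathione, glucuronic acid or sulfate so that they can be excreted. Liver is their main site, but the club cells of the small airways carry a P450 set of their own, and keratinocytes of the epidermis carry another. Superoxide dismutases, peroxidases and the thioredoxin system remove the reactive oxygen that radiation and metabolism produce. Metallothioneins bind zinc and copper and are induced by metals, by glucocorticoids and by stress. NRF2 is the factor through which oxidative stress raises Nqo1, Hmox1, Txnrd1 and many glutathione transferases.

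Promoters of 2 gene groups are shown because their members were followed together below. The metallothionein genes lie side by side on mouse chromosome 8, and the capitals mark the core of the metal response element, TGCACNC or TGCGCNC on either strand. The windows hold the 250 bases before the annotated start, on the plus strand of GRCm38.p6, from RefSeq: chr8:94178839-94179088 for Mt1, chr8:94172368-94172617 for Mt2 and chr8:94152357-94152606 for Mt3.
Mt1: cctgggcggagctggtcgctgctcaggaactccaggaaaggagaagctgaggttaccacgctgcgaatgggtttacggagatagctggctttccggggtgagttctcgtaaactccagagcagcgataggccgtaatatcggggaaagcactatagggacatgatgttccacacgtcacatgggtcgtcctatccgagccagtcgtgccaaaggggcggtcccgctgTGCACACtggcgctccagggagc
Mt2: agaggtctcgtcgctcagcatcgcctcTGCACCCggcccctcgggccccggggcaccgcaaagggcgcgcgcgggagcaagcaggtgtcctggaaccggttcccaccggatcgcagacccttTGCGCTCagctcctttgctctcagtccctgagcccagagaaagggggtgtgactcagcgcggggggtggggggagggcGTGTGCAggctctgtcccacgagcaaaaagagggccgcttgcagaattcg
Mt3: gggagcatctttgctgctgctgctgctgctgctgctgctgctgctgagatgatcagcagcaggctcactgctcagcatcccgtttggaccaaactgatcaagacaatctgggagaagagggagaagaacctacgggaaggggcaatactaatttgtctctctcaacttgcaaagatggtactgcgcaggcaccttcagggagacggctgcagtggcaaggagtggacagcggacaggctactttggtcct
Mt2 held 3 matches, which start at positions -223, -128 and -50 from the gene's start. Mt1 held 1, at -23, and Mt3 held none in this window, which says nothing of sites elsewhere. The table gives 1 annotated start per gene, which need not be the start these tissues use most. At least 1 such match stood in 21.4% of all 32851 promoter windows and in 15 of the 57 members with a window. Of all windows, 1.26% held 3 or more.

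The second group is the Cyp2b family on chromosome 7. Of its members Cyp2b9 and Cyp2b10 were high in lung, and Cyp2b19 and, less so, Cyp2b10 in skin. The 100 bases before each start are at chr7:25897558-25897657 for Cyp2b10, chr7:26173309-26173408 for Cyp2b9 and chr7:26757042-26757141 for Cyp2b19, all on the plus strand. Capitals mark a match on either strand to TTGCNNAA, the pattern bound by C/EBP factors.
Cyp2b10: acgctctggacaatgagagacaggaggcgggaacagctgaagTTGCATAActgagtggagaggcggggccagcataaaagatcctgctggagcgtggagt
Cyp2b9: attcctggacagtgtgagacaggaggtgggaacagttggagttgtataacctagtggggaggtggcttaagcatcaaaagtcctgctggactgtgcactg
Cyp2b19: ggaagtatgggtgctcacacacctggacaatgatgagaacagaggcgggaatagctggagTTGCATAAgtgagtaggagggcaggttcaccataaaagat
Cyp2b10 and Cyp2b19 each held TTGCATAA, starting at positions -58 and -40, and Cyp2b9 held no match in the 100 bases shown. Over the 250 bases before the start, such a match occurred in 9.56% of all windows and in 12 of the 57 members with a window, where Cyp2b9 also held 1. Aligned without gaps, at the shift of up to 50 bases with the most identical letters, Cyp2b9 and Cyp2b10 shared 74 of 99 bases, Cyp2b19 and Cyp2b10 shared 57 of 82, and Cyp2b9 and Cyp2b19 shared 49 of 81. In the windows of 250 bases the antioxidant response core TGACNNNGC stood in 6 members (Aldh1a2, Gsta3, Mt2, Sod1, Txndc11 and Txnrd1) and in 10.2% of all windows, and GCGTG, the core bound by the dioxin receptor, in 21 members and 28.2% of all windows. The letters are those of the C57BL/6J reference genome, and the other strains' promoters are not analysed here. Close relatives such as these, or the Akr1c and Gstm genes, can also share signal on an array, and the probe sequences were not used here.

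Facts of the arrays that touch these results are few. The 4 lung arrays of A/J and C3H/HeMs at 12 h and 72 h stood apart from the other 8: over all features the arrays correlated at 0.891 to 0.941 within the 4, at 0.898 to 0.959 within the 8, and at 0.797 to 0.887 between them. On these 4, between 115 and 674 probes had a deposited ratio of exactly 0, against 1 to 23 on the other 8. 14 members were higher on all 4 than on any of the other 8 (20%, against 15.2% of all features) and 4 were lower on all 4 (5.71%, against 5.45%). C57BL/6J has no array in that set, so a strain difference at 12 h and 72 h in lung and the set cannot be told apart. For members and their pathway partners, the lung differences between strains that passed are given below with and without the 4 arrays. Without them only C57BL/6J has lung arrays at 12 h and 72 h, so lung strain differences then rest on the control and 1 h arrays. Where a call was lost in that fit, the removal of the set and the smaller number of arrays cannot be told apart. Markers placed the tissues with their labels: the mean of 4 club cell markers was 1.35 to 2.43 on the lung arrays and -1.76 to -0.76 on the skin arrays, the mean of 5 epidermal markers was 4.0 to 5.83 in skin and -3.88 to -1.86 in lung, and the mean of 6 hepatocyte markers was -6.62 to -5.83 on all 24. In whole tissue such as this, fewer cells of a type and less RNA per cell cannot be told apart.

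Most members stood below the reference in both tissues. In lung, 37 of 70 were below the array median on all 12 arrays (52.9%, against 27.7% of all features) and 11 above it on all 12 (15.7%, against 21.3%). In skin, 27 were below on all 12 (38.6%, against 23.4%) and 11 above (15.7%, against 26.6%). The median of the members' mean log2 ratios was -0.82 in lung and -0.54 in skin, against 0.05 and -0.01 for all features.

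**Figure D1:**
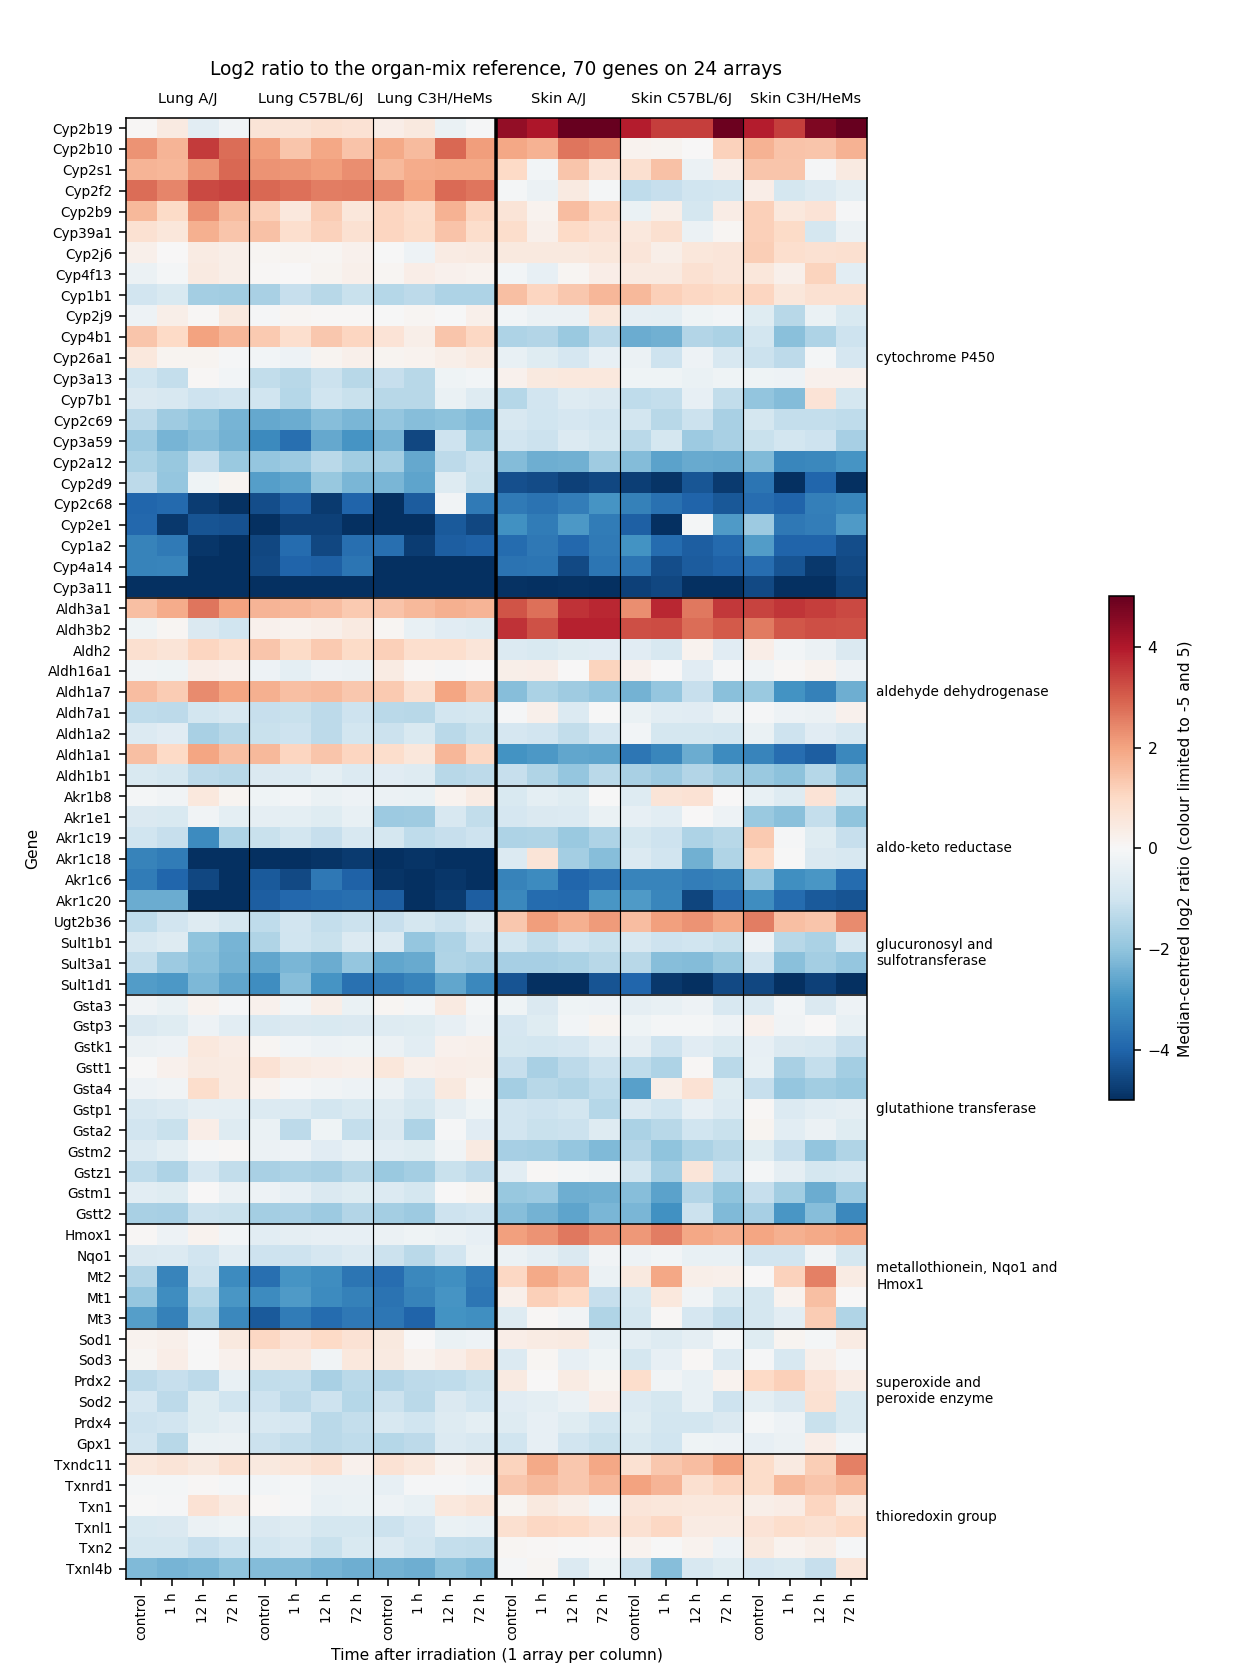
Median-centred log2 ratio to the reference (colour, limited to -5 and 5) of all 70 members, grouped by family, on the 24 arrays, 1 array per column. Most of the aldo-keto reductase and transferase lines are blue in both tissues, and the metallothioneins are low in lung (means of -3.32 to -2.96) and near or above 0 in skin (means of -0.57 to 0.94).

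The P450 genes held both ends of the scale in lung. Cyp2f2, the club cell enzyme that activates naphthalene, had the highest mean ratio of any member there, 2.71 ± 0.38 (SD, n = 12 arrays). Cyp2b10, Cyp2s1, Cyp2b9 and Cyp4b1, a P450 of the lung in many mammals, followed at 2.13 ± 0.64, 2.05 ± 0.36, 1.23 ± 0.51 and 1.17 ± 0.45. At the other end were P450 genes known from liver: Cyp3a11 at -6.28 ± 0.51, Cyp2e1 at -4.65 ± 0.40, Cyp4a14 at -4.54 ± 0.83, Cyp1a2 at -4.24 ± 0.67 and Cyp2c68 at -3.98 ± 1.29. The Cyp3a11 ratio was at the lower limit of the deposited scale on 5 lung arrays (A/J at 12 h and 72 h, C3H/HeMs at every time after irradiation), so its value there is only an upper bound. For Cyp2c68 1 array, C3H/HeMs lung at 12 h, had a ratio of exactly 0 while the other 11 lay between -4.99 and -3.55.

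Aldehyde dehydrogenases were the other family with high ratios in lung. Aldh3a1, which oxidises aldehydes formed from lipid peroxides, stood at 1.72 ± 0.35, Aldh1a7 at 1.57 ± 0.41, and Aldh1a1, which makes retinoic acid from retinal, at 1.27 ± 0.40. Aldh2, the mitochondrial acetaldehyde dehydrogenase, stood at 0.96. The aldo-keto reductases Akr1c18, Akr1c6 and Akr1c20, which act on steroids, had mean lung ratios of -5.22 ± 1.08, -4.52 ± 0.67 and -4.20 ± 1.07. Akr1c18 was at the lower limit in A/J lung at 12 h and 72 h, so those values are bounds as well.

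Skin had another leading set. Cyp2b19, the epoxygenase of differentiating keratinocytes, had a mean ratio of 4.31 ± 0.69 (SD, n = 12), ahead of Aldh3a1 at 3.27 ± 0.46 and Aldh3b2 at 3.25 ± 0.38. Hmox1, which breaks down haem, stood at 2.12 ± 0.27, Ugt2b36 at 1.91 ± 0.40, Txndc11, a thioredoxin-domain protein of the endoplasmic reticulum, at 1.43 ± 0.59, and Txnrd1, thioredoxin reductase, at 1.42 ± 0.35. Cyp2b10, also high in lung, followed at 1.38 ± 0.88. Lowest in skin were Cyp3a11 at -4.92 ± 0.26, the catecholamine sulfotransferase Sult1d1 at -4.74 ± 0.43, Cyp2d9 at -4.54 ± 0.43 and Cyp4a14 at -4.10 ± 0.41. Cyp1b1, a P450 active outside the liver that acts on oestrogens, was below the reference on every lung array (-1.35 ± 0.31) and above it on every skin array (1.13 ± 0.35). Aldh1a1 stood the other way round, at 1.27 in lung and -3.17 ± 0.50 in skin. The 6 enzymes that remove superoxide and peroxide had means of -1.22 to 0.36 in lung and -0.66 to 0.4 in skin, with Sod1, the cytosolic superoxide dismutase, at 0.36 in lung and -0.08 in skin, and mitochondrial Sod2 at -1.05 and -0.43. The 11 glutathione transferases had means of -1.47 to 0.35 in lung and -2.33 to -0.2 in skin, and none was above the reference on all arrays of either tissue.

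**Figure D2:**
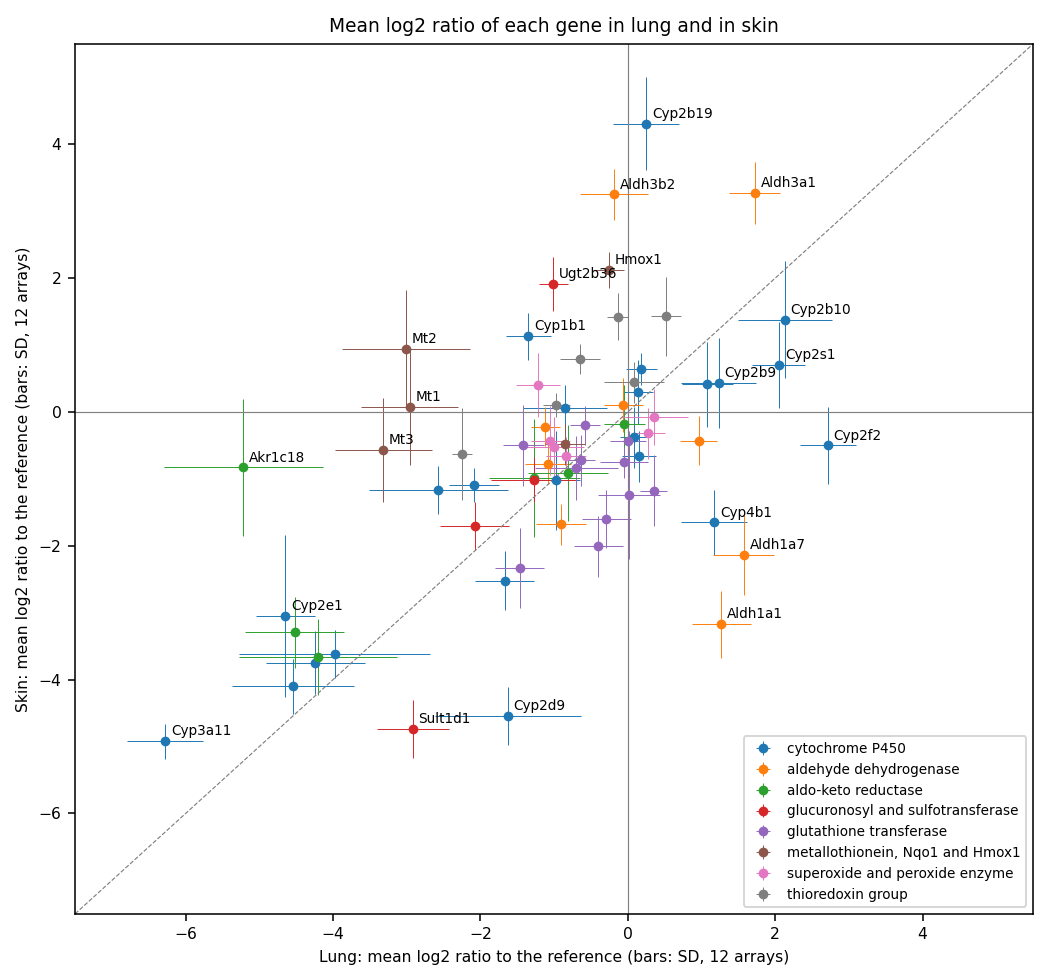
Mean log2 ratio to the reference in skin against lung for the 70 members, coloured by family, with SD over 12 arrays per tissue as bars and a dashed line of equal ratios. Cyp2f2 lies far to the right at a lung mean of 2.71, Cyp2b19 at the top at a skin mean of 4.31, and Cyp3a11 in the low corner; the 2 tissues carry opposite dyes.

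The comparison of strains asked which members differ from strain to strain over the 4 arrays of each strain in a tissue, with the time group in the model. The test of both tissues together took the strain differences averaged over lung and skin, so 1 tissue alone can carry a call. By limma with Benjamini-Hochberg adjustment over all 8750 features, 7 of 70 members passed it at an adjusted p under 0.05 (10%, against 7.44% of all features). Those were Akr1e1 (adjusted p = 9.91e-05), Cyp2b10 (0.000891), Cyp3a13 (0.0181), Cyp2d9 (0.034), Akr1c19 (0.0413), Aldh1a1 (0.0491) and Cyp2f2 (0.0499). With the set of lung arrays as a block in the model the count was 3 (4.29%, against 3.01%), and without the 4 lung arrays that stood apart it was 4 (5.71%, against 1.81%). Akr1e1 and Cyp2b10 passed in both of these fits, while the other 5 passed in neither, and Cyp2c69 passed in both and Cyp4a14 without the 4 arrays. At an unadjusted p under 0.05 there were 18 members (25.7%, against 27.8%). Within lung, 2 members passed, Cyp2d9 (adjusted p = 0.0333) and Akr1e1 (0.0431), beside 2.95% of all features, and within skin 2, Akr1e1 and Cyp2b10 (adjusted p = 0.0364 each), beside 0.377%. At an unadjusted p under 0.05 there were 14 members in each tissue (20%, against 23.7% in lung and 19.1% in skin). 

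Akr1e1, an aldo-keto reductase of sugar metabolism, was lowest in C3H/HeMs in both tissues. In lung its log2 ratio was -0.74, -0.77, -0.17 and -0.49 in A/J, -0.43, -0.49, -0.59 and -0.38 in C57BL/6J, with -1.83, -1.78, -0.82 and -1.23 in C3H/HeMs. Skin gave -0.83, -0.71, -0.69 and -0.34 in A/J, -0.42, -0.52, 0.03 and -0.26 in C57BL/6J, with -1.84, -2.08, -1.21 and -2.03 in C3H/HeMs. Every C3H/HeMs array was thus below every array of the other strains in its tissue. C3H/HeMs was below C57BL/6J by 1.49 in skin (log2 difference -1.49 ± 0.20 SE, limma adjusted p = 0.0308; 0.183% of all features passed) and by 0.94 in lung (-0.94 ± 0.18, adjusted p = 0.0404; 1.82% passed). Against A/J the difference was -1.15 ± 0.20 in skin (adjusted p = 0.0624) and -0.87 ± 0.18 in lung (adjusted p = 0.103), neither of which passed; 0.251% and 0.423% of all features did. Both differences from A/J passed under another setting: with the set of lung arrays as a block the lung difference was -0.87 ± 0.13 and passed (adjusted p = 0.0383), and with only control and 1 h arrays the skin difference was -1.19 ± 0.22 and passed (adjusted p = 0.0406), while that from C57BL/6J was -1.48 ± 0.22 and did not (adjusted p = 0.122). Without the 4 lung arrays that stood apart, the lung difference from C57BL/6J was -1.35 ± 0.10 (adjusted p = 0.05) and from A/J -1.05 ± 0.10 (adjusted p = 0.0549). The call over both tissues held when each of the 24 arrays was left out in turn, with adjusted p from 4e-05 to 0.000623, whereas the calls within lung and within skin held in 2 and 3 of 12 such fits.

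Cyp2b10, the P450 induced in liver through the receptor CAR, was lowest in C57BL/6J. Skin values were 1.92, 1.73, 2.66 and 2.53 in A/J, 0.16, 0.13, 0.0 and 1.15 in C57BL/6J, with 1.73, 1.42, 1.39 and 1.72 in C3H/HeMs, so that no C57BL/6J array reached either other strain. The deposited ratio of the C57BL/6J array at 1 h was exactly 0. C57BL/6J was below A/J in skin by 1.85 (-1.85 ± 0.24, limma adjusted p = 0.0308, beside 0.354% of all features). Lung values were 2.24, 1.71, 3.5 and 2.8 in A/J, 2.09, 1.39, 1.95 and 1.41 in C57BL/6J, with 1.89, 1.57, 2.87 and 2.09 in C3H/HeMs, and here the strains overlapped. C57BL/6J was 0.85 below A/J in lung (-0.85 ± 0.23, adjusted p = 0.0833), which did not pass, and without the 4 arrays the difference was -0.23 ± 0.14. The call over both tissues held with each array left out, at adjusted p from 0.000614 to 0.00344. Within skin the strain call held in 3 of 12 such fits and that of C57BL/6J against A/J in 4 of 12, and with only control and 1 h arrays the latter was lost (-1.68 ± 0.21, adjusted p = 0.0971).

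Cyp3a13, a relative of the drug-metabolising Cyp3a11, also had its lowest means in C57BL/6J. In skin it stood at 0.22, 0.5, 0.53 and 0.52 in A/J, -0.2, -0.2, -0.33 and -0.22 in C57BL/6J, with -0.2, -0.27, 0.2 and 0.23 in C3H/HeMs. Lung read -1.0, -1.21, 0.06 and -0.13 in A/J, -1.23, -1.38, -1.09 and -1.38 in C57BL/6J, with -1.14, -1.38, -0.2 and -0.14 in C3H/HeMs. A/J lay above the other strains on nearly all skin arrays, while in lung A/J and C3H/HeMs lay above C57BL/6J mainly on the 4 arrays that stood apart: C57BL/6J minus A/J was -0.70 ± 0.22 over all 12 lung arrays and -0.20 ± 0.10 without those 4. Without the 4 arrays the call over both tissues was lost (adjusted p = 0.181), as it was with their set as a block (0.0525). The call over both tissues was lost without lung 12 h of C57BL/6J (adjusted p = 0.0503) and kept without each other single array.

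Cyp2d9, a steroid hydroxylase best known from male liver, was called in lung, where its pattern also followed the arrays. A/J gave -1.31, -1.93, -0.21 and 0.14, C57BL/6J -2.75, -2.65, -1.91 and -2.28, with C3H/HeMs at -2.28, -2.65, -0.66 and -1.11. All C57BL/6J values but that at 12 h were below every A/J value. Within each strain the 12 h and 72 h arrays lay above the control and 1 h arrays, also in C57BL/6J, which has no array among the 4 that stood apart. C57BL/6J was below A/J by 1.57 (-1.57 ± 0.25, limma adjusted p = 0.0199, beside 3.68% of all features). Without the 4 arrays the difference was -1.08 ± 0.20 and did not pass (adjusted p = 0.102). Cyp2b9 passed in the same comparison (-0.73 ± 0.15, limma adjusted p = 0.0367). Its values of 1.61, 0.95, 2.3 and 1.58 in A/J and of 1.18, 0.51, 1.26 and 0.57 in C57BL/6J overlapped. Without the 4 arrays it stood at -0.44 (adjusted p = 0.234). With single arrays left out, this comparison stayed called in 3 of 12 fits for Cyp2b9 and in 7 of 12 for Cyp2d9.

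Sod1 was called between C57BL/6J and C3H/HeMs in lung. Its values were 1.05, 0.7, 0.99 and 0.71 in C57BL/6J, with C3H/HeMs at 0.47, 0.01, -0.32 and -0.25. The A/J values were 0.16, 0.26, 0.03 and 0.5, so that every C57BL/6J array lay above all the others. C3H/HeMs was lower by 0.88 (-0.88 ± 0.18, limma adjusted p = 0.0471), and by 0.64 without the 4 arrays (-0.64, adjusted p = 0.225). The call held in 1 of 12 fits with a single array left out, and was lost uncentred and with the set of lung arrays as a block. In skin C57BL/6J held the lowest mean instead, at -0.42 ± 0.24 against 0.21 ± 0.38 in A/J (SD, n = 4 arrays), and Sod1 gave 1 of the smallest p-values for a strain effect that differed between tissues (adjusted p = 0.0906), after Cyp2b19 (0.0751). No member passed that test, which 0.594% of all features did, and 13 had an unadjusted p under 0.05 (18.6%, against 18.1%).

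The last 3 genes called over both tissues lay near the threshold and were lost in most fits with a single array left out. Akr1c19 was high in C3H/HeMs skin, at 1.3, -0.06, -0.61 and -1.17, against -1.56, -1.51, -1.87 and -1.53 in A/J and -0.87, -1.05, -1.55 and -1.39 in C57BL/6J, and its C3H/HeMs values overlapped those of C57BL/6J from 72 h. The mean of 15 skeletal muscle markers stood at 1.13, 0.76, -1.40 and -1.15 on the same C3H/HeMs arrays, against -1.45 to -0.14 on the A/J and C57BL/6J skin arrays, and its part in the result was not tested. Aldh1a1 had lung means of 1.5 ± 0.41 in A/J, 1.28 ± 0.26 in C57BL/6J, with 1.03 ± 0.46 in C3H/HeMs, and skin means of -2.76 ± 0.18, -3.13 ± 0.46 and -3.62 ± 0.42 (SD, n = 4). Cyp2f2 in skin read -0.08, -0.31, 0.44 and -0.1 in A/J, -1.27, -1.15, -0.98 and -0.92 in C57BL/6J, with 0.35, -0.86, -0.68 and -0.49 in C3H/HeMs. All C57BL/6J skin arrays were below the others. In lung the Cyp2f2 means were 2.97 ± 0.44, 2.7 ± 0.15 and 2.47 ± 0.38 in the same order of strains, lowest in C3H/HeMs. The Akr1c19 means in lung were -1.71 ± 0.97, -1.01 ± 0.18 and -1.09 ± 0.18, lowest in A/J. Without the 4 lung arrays that stood apart the limma adjusted p over both tissues was 0.305 for Akr1c19, 0.195 for Aldh1a1, 0.397 for Cyp2f2 and 0.318 for Cyp2d9. When single arrays were left out, the calls held in 11 of 24 fits for Cyp2d9, 7 for Akr1c19, 5 for Aldh1a1 and 3 for Cyp2f2.

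**Figure D3:**
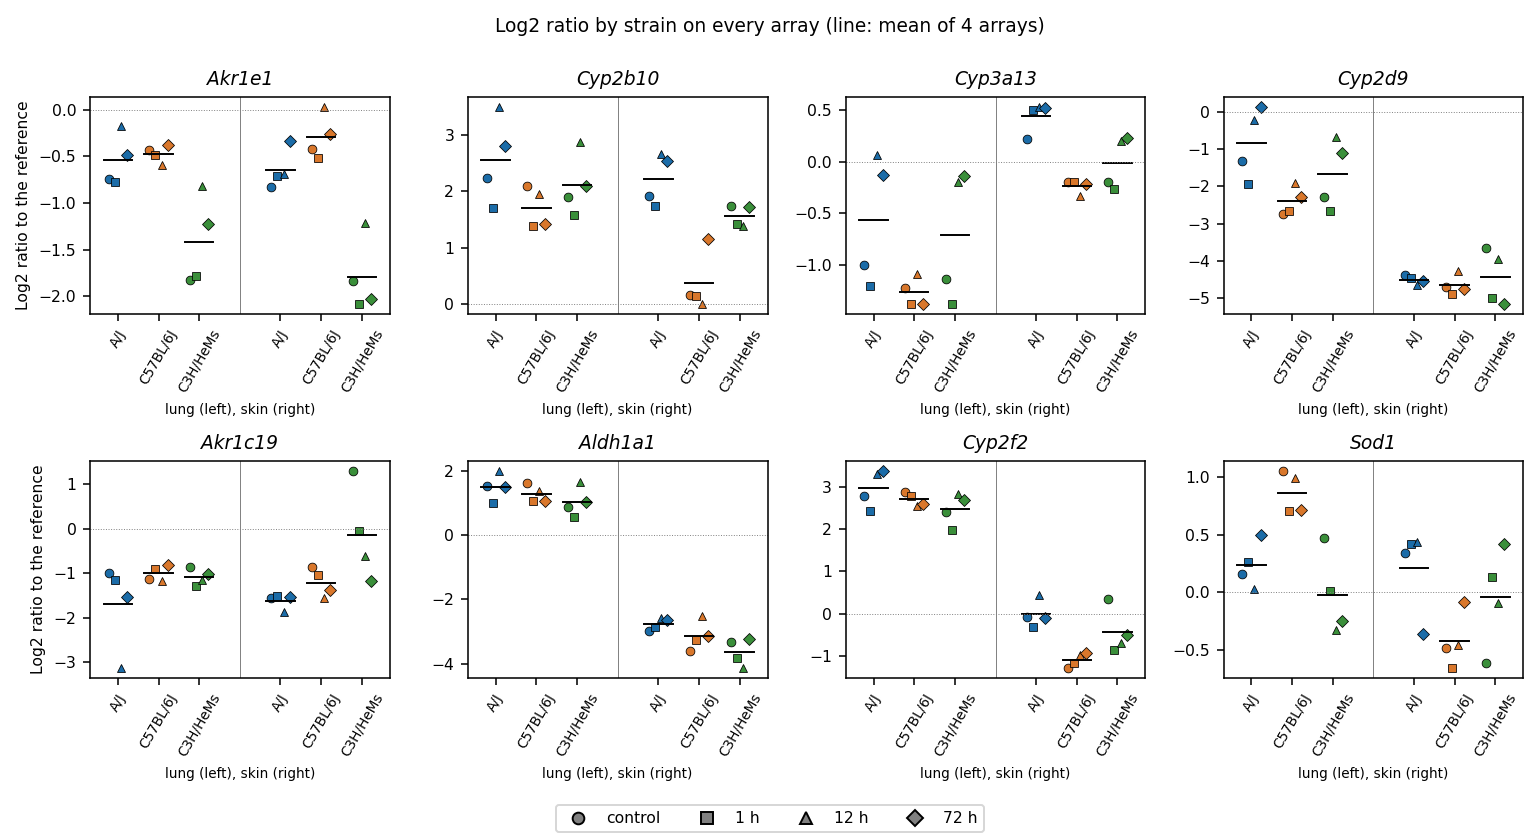
Log2 ratio to the reference on every array for the 7 members called between strains over both tissues and for Sod1, by tissue and strain; the marker shape gives the time, and the bar is the mean of the 4 arrays. All C3H/HeMs arrays lie lowest for Akr1e1 in both tissues, and all C57BL/6J arrays lie lowest for Cyp2b10 in skin.

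The comparison over time asked which members changed after irradiation. None of the 70 passed in lung or skin at 1 h, 12 h or 72 h against control, by limma over all 8750 features, nor with all irradiated arrays against control, nor in the test of whether the response differed between strains. All features passed at 0.0114% at 1 h, 0.114% at 12 h, 0.114% at 72 h and 0.0914% with all irradiated arrays in lung, at 0.0229% in the lung test of strain by irradiation, and at 0% in skin in each of these comparisons. At an unadjusted p under 0.05 the lung counts were 5 members at 1 h (7.14%, against 2.24% of all features), 8 at 12 h (11.4%, against 12.1%) and 7 at 72 h (10%, against 12.4%). With all irradiated arrays it was 3 (4.29%, against 6.59%). These lung counts moved when the set of arrays that stood apart was a block in the model: to 9 at 1 h (12.9%, against 3.87%), 2 at 12 h (2.86%, against 5.54%), 12 at 72 h (17.1%, against 5.07%) and 7 with all irradiated arrays (10%, against 4.35%). The skin counts were 6 at 1 h (8.57%, against 4.37%), 9 at 12 h (12.9%, against 6.71%) and 7 at 72 h (10%, against 7.39%), and 10 with all irradiated arrays (14.3%, against 5.52%). On the same arrays the p53 target Cdkn1a was 2.23, 2.71 and 2.54 above control in lung at the 3 times in order, and was called at each.

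In lung at 1 h the largest differences that all 3 strains shared were below control, and none passed. Cyp2b9 stood at -0.51 ± 0.17 (log2 difference from control ± SE, limma adjusted p = 1), Gsta2, a glutathione transferase, at -0.64 ± 0.24, Cyp4b1 at -0.40 ± 0.16, Sod2 at -0.34 ± 0.14 and Aldh1a1 at -0.46 ± 0.19, each with the same adjusted p and lower in each of the 3 strains. Cyp3a59 stood at -1.13 ± 0.51, from -0.53 in A/J, -0.60 in C57BL/6J, with -2.25 in C3H/HeMs, but at -0.38 without the C3H/HeMs array at 1 h. Cyp2b10 stood at -0.52 ± 0.27, and at -0.23 without the C57BL/6J control. Lower in all 3 strains were 17 members (24.3%, against 14.9% of all features), and higher in all 3 were 9 (12.9%, against 14.6%), led by Cyp2c68 at 0.41, which turned to -0.45 without the C3H/HeMs control, and Ugt2b36, a glucuronosyltransferase, at 0.31 ± 0.15. The median member was -0.11, against -0.01 for all features.

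The 12 h values of these genes were higher than those at 1 h, and the 72 h values lower again. Cyp2b9 in lung read 1.61, 0.95, 2.3 and 1.58 in A/J, 1.18, 0.51, 1.26 and 0.57 in C57BL/6J, with 1.08, 0.88, 1.72 and 1.06 in C3H/HeMs. Gsta2 read -0.96, -1.13, 0.35 and -0.66 in A/J, -0.35, -1.31, -0.2 and -1.19 in C57BL/6J, with -0.74, -1.53, -0.07 and -0.55 in C3H/HeMs. Cyp4b1 read 1.4, 1.01, 2.02 and 1.67, then 1.29, 0.84, 1.36 and 1.06, then 0.69, 0.31, 1.39 and 1.02 in the same order of strains. In each strain the 1 h array was the lowest of the 4 for all 3 genes and the 12 h array lay above it, also in C57BL/6J, which has no array among the 4 that stood apart.

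A contrast of neighbouring times, added after the data were seen, gave the size of these steps. From 1 h to 12 h the difference was 1.35 ± 0.24 for Gsta2 and 0.98 ± 0.17 for Cyp2b9 (limma adjusted p = 0.0923 each), 0.87 ± 0.16 for Cyp4b1 (0.0941), 1.49 ± 0.29 for Cyp2d9 (0.123), 1.22 ± 0.27 for Cyp2b10 (0.141), 0.80 ± 0.19 for Aldh1a1 (0.153) and 0.54 ± 0.14 for Sod2 (0.171). None passed, as against 0.0686% of all features, and 17 members had an unadjusted p under 0.05 (24.3%, against 16.5%). In C57BL/6J alone the step was 1.11 for Gsta2, 0.75 for Cyp2b9, 0.57 for Cyp2b10 and 0.52 for Cyp4b1. Between 12 h and 72 h, where no feature passed (0%), the differences were -0.83 ± 0.24 for Gsta2 (adjusted p = 0.632) and -0.69 ± 0.17 for Cyp2b9 (adjusted p = 0.594), and 10 members had an unadjusted p under 0.05 (14.3%, against 5.82%).

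Counted over all members, 11 were below control at 1 h, above the 1 h array at 12 h and below the 12 h array at 72 h in every one of the 3 strains (15.7%, against 2.95% of all features). They were Cyp2b9, Cyp2b10, Cyp3a59, Cyp39a1 and Cyp4b1 of the P450 genes, Gsta2 and Gsta3 of the glutathione transferases, Aldh1a1, Aldh1a7 and Aldh2 of the aldehyde dehydrogenases, and Sod2. The opposite order was seen for 1 member, Aldh1a2 (1.43%, against 1.51%), and neither order for any member in skin (0%, against 0.663% and 1.01%). This count was made after the pattern was seen and has no test. The clock gene Per3 was lowest at 1 h and higher at 12 h in each strain on the same arrays. In lung it read 0.26, -0.39, 0.99 and 0.67 in A/J, 0.76, -0.36, 0.52 and 0.47 in C57BL/6J, with 0.1, -0.4, 0.93 and 0.03 in C3H/HeMs. In C57BL/6J its 12 h value thus stayed below control. The difference from 1 h to 12 h was 1.19 ± 0.21 (limma adjusted p = 0.0923). Other clock genes were also read, and their values are not given here. The hours of the day at which tissues were taken are not given in the sources used here, and the part of the clock in the members' values was not tested.

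**Figure D4:**
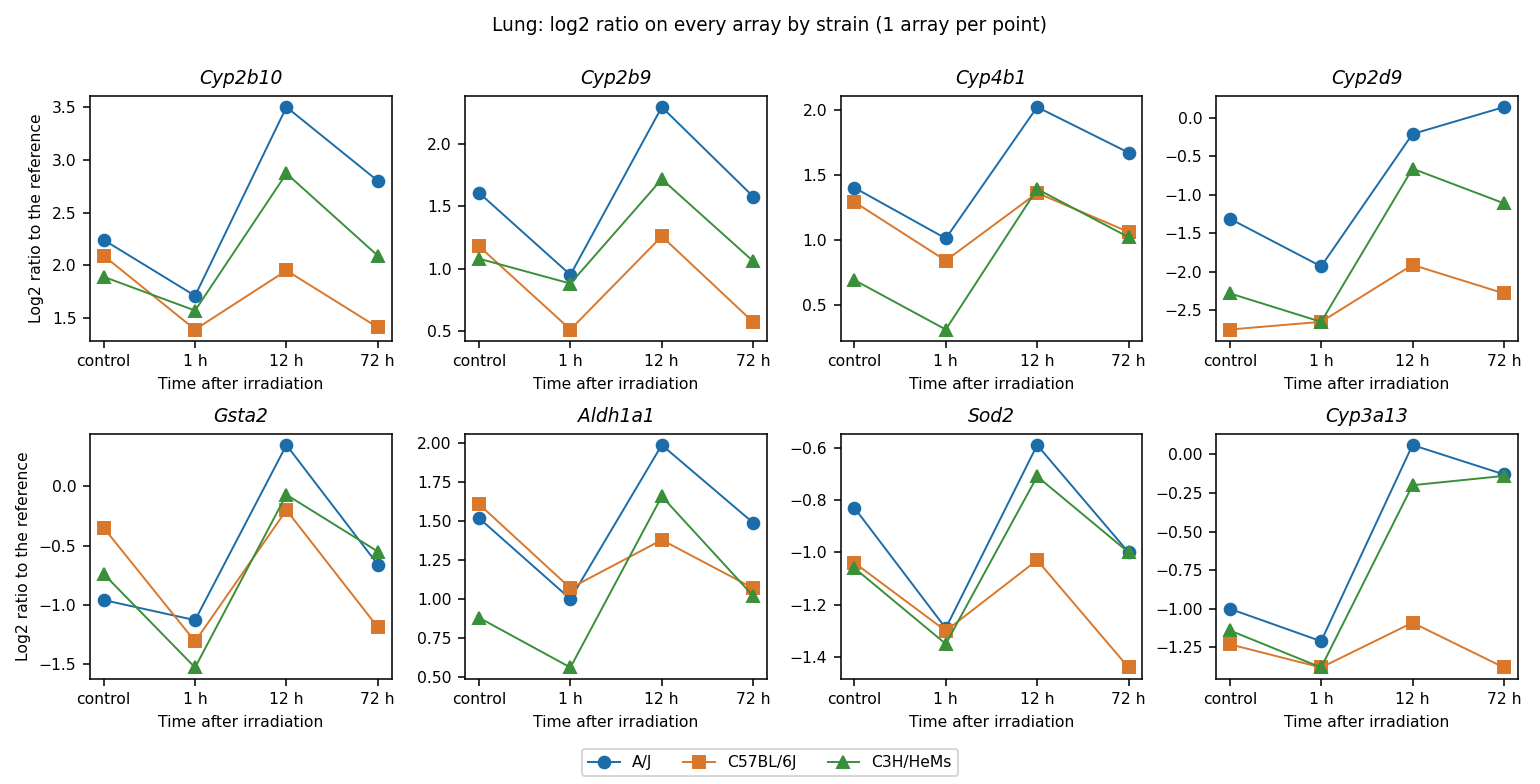
Log2 ratio to the reference in lung by time for members named at 1 h or 12 h, 1 line per strain and 1 array per point. Cyp2b9, Cyp4b1 and Gsta2 dip at 1 h and peak at 12 h in all 3 strains, with 12 h above 1 h by 0.98, 0.87 and 1.35 on average.

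Against control, the lung at 12 h and 72 h had Cyp2d9 as the member of smallest p, 1.18 ± 0.29 higher at 12 h (limma adjusted p = 0.289; 1.10 in A/J, 0.83 in C57BL/6J, 1.62 in C3H/HeMs) and 1.03 ± 0.29 at 72 h (adjusted p = 0.337; 1.45, 0.46 and 1.17). At 12 h Gsta2 followed at 0.71 ± 0.24 (adjusted p = 0.36), then Cyp3a13 at 0.71 ± 0.25 and Cyp2b10 at 0.70 ± 0.27, with 1.06 and 1.26 in A/J, 0.94 and 0.97 in C3H/HeMs, but 0.14 and -0.14 in C57BL/6J. The A/J and C3H/HeMs arrays at 12 h are among the 4 that stood apart, and markers of several cell types moved on them in the same directions. From control to 12 h the mean of 6 alveolar type II cell markers went from 1.62 to 2.08 in A/J and from 1.07 to 1.72 in C3H/HeMs, but from 1.58 to 1.40 in C57BL/6J. The mean of 4 club cell markers went from 2.07 to 2.42 and from 1.35 to 2.00 in the first pair of strains, and from 1.97 to 1.86 in C57BL/6J. The part of these cell types in the members' values was not tested. On the low side was Akr1c19 at -0.82 ± 0.38, which rested on A/J: the strain values were -2.13, -0.04 and -0.28 in the order A/J, C57BL/6J and C3H/HeMs, and without the A/J array at 12 h it stood at -0.24. Also low were Aldh1a2, which makes retinoic acid, at -0.49 ± 0.20 and Txn2, mitochondrial thioredoxin, at -0.34 ± 0.14. At 72 h Nqo1, the quinone reductase of the NRF2 response, stood at 0.44 ± 0.17 (adjusted p = 0.367; 0.22, 0.35 and 0.74), Gstt2 at 0.50 ± 0.19, Cyp2s1 at 0.52 ± 0.23 and Cyp2j9 at 0.38 ± 0.14. Higher in all 3 strains were 16 members at 12 h (22.9%, against 16.8%) and 13 at 72 h (18.6%, against 18.4%), and lower in all 3 were 6 (8.57%, against 10.7%) and 1 (1.43%, against 13.6%). The members' median was 0.22 at 12 h and 0.04 at 72 h, against 0.07 and 0.05 for all features. Without the 4 arrays that stood apart it was -0.05 at 12 h, where the C57BL/6J array was then the only one left.

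The lung metallothionein Mt1 varied most among the A/J arrays, with a mean of -2.35 ± 0.8 there (SD, n = 4 arrays). Mt1 read -1.93, -3.11, -1.43 and -2.91 in A/J, Mt2 -1.46, -3.32, -1.06 and -3.16, and Mt3 -2.75, -3.38, -1.7 and -3.21, so that all 3 genes were higher in the control and 12 h pools than in the 1 h and 72 h pools of that strain. At 12 h the differences from control over the 3 strains were 0.60 for Mt2 and 0.68 for Mt3. The Mt1 mean in lung was -3.12 ± 0.22 for C57BL/6J, and for C3H/HeMs it was -3.4 ± 0.33 (SD, n = 4 arrays).

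In skin at 1 h the metallothioneins Mt1 and Mt2 were the members furthest above control. Mt1 read 0.25, 1.21, 0.99 and -1.17 in A/J, -0.78, 0.54, -0.19 and -0.75 in C57BL/6J, with -0.86, 0.16, 1.52 and 0.02 in C3H/HeMs. Mt2 read 1.05, 1.9, 1.55 and -0.3, then 0.5, 1.92, 0.3 and 0.25, then 0.02, 1.16, 2.5 and 0.41, and Mt3 -0.65, 0.04, -0.17 and -1.5, then -0.88, 0.05, -0.85 and -1.21, then -0.88, -0.51, 1.25 and -1.5. All 3 genes were above control at 1 h in each strain, were highest at 12 h in C3H/HeMs, and stood near or below control in A/J and C57BL/6J by 72 h, with Mt1 in C57BL/6J at -0.75 against -0.78. The difference at 1 h was 1.10 ± 0.46 for Mt1, 2.14-fold (limma adjusted p = 1), 1.13 ± 0.51 for Mt2 (adjusted p = 1) and 0.66 ± 0.44 for Mt3, none of which passed. For Mt1 it was 1.24 ± 0.46 at 12 h (adjusted p = 0.665), and from 12 h to 72 h -1.40 ± 0.46. Fkbp5, a target of glucocorticoids, stood on the same arrays at 0.46, 1.03, 2.04 and -0.79 in A/J, -0.49, 0.49, -0.04 and -0.63 in C57BL/6J, with 0.05, 0.63, 0.28 and -1.8 in C3H/HeMs. The mean of all 10 measured glucocorticoid and metal response genes was 0.08, 0.28, 0.95 and -0.18 in A/J, -0.28, 0.65, -0.03 and -0.14 in C57BL/6J, with -0.12, -0.2, 0.77 and -0.7 in C3H/HeMs. At 1 h that mean was above control in A/J and C57BL/6J but not in C3H/HeMs. The part of these genes in the metallothionein values was not tested.

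The rest of the skin at 1 h leaned low. Sult1d1 stood at -0.84 ± 0.25 (limma adjusted p = 1; -0.74 in A/J, -0.86 in C57BL/6J, -0.92 in C3H/HeMs), Cyp2e1, the ethanol-inducible P450, at -1.05, Cyp2a12 at -0.60 ± 0.24, Aldh1a2 at -0.53 ± 0.22 and Cyp1b1 at -0.48 ± 0.21. Lower in all 3 strains were 23 members (32.9%, against 18.2% of all features) and higher in all 3 were 4 (5.71%, against 11%). The members' median of -0.18, against -0.05, became -0.01 when arrays were scaled by quantiles in place of the median. That scaling also turned the sign of 18 members at 1 h in skin, Akr1c20, Cyp2d9 and Aldh1a1 among them, while Mt1, Mt2 and Mt3 kept theirs.

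At 12 h in skin the steroid-reducing Akr1c genes lay furthest below control. Akr1c18, which inactivates progesterone, read -0.68, 0.66, -1.68 and -2.11 in A/J, -0.7, -0.95, -2.39 and -1.51 in C57BL/6J, with 1.0, -0.01, -0.73 and -0.82 in C3H/HeMs. It was below control at 12 h and 72 h in every strain, and was the only member at least 2-fold lower in all 3 at 12 h, as were 0.0457% of all features. The differences were -1.48 ± 0.42 at 12 h (limma adjusted p = 0.53) and -1.36 ± 0.42 at 72 h (adjusted p = 0.65), and neither passed. Akr1c20 stood at -1.18 ± 0.33 (adjusted p = 0.518) and Akr1c19 at -0.97 ± 0.38 (adjusted p = 0.693) at 12 h. In C3H/HeMs the Akr1c18 and Akr1c19 values of the control pool, 1.0 and 1.3, were the highest of each gene in skin, on the array where the muscle markers were also highest, and the part of muscle was not tested.

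Other members lay above control at 12 h. Cyp7b1, the hydroxylase of oxysterols, read -1.41, -0.97, -0.66 and -0.71 in A/J, -1.26, -1.2, -0.41 and -1.24 in C57BL/6J, with -1.99, -2.16, 0.67 and -0.89 in C3H/HeMs. Its 12 h array was the highest in each strain, 1.42 ± 0.42 above control on average (limma adjusted p = 0.562). Akr1b8, an aldose reductase relative, stood at 0.86 ± 0.38, and Sod2 at 0.63. Higher in all 3 strains were 12 members (17.1%, against 10.3%) and lower in all 3 were 17 (24.3%, against 15.7%), with a median of -0.02 against -0.03.

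At 72 h the skin members furthest above control were Txndc11 and the keratinocyte gene Cyp2b19. Txndc11 read 1.13, 1.91, 1.35 and 1.94 in A/J, 0.77, 1.34, 1.54 and 2.0 in C57BL/6J, with 0.91, 0.46, 1.24 and 2.53 in C3H/HeMs, and Cyp2b19 read 4.41, 4.06, 4.99 and 5.0, then 3.92, 3.45, 3.44 and 4.91, then 3.94, 3.46, 4.66 and 5.44. For both genes the 72 h array was the highest of each strain. The differences from control were 1.22 ± 0.33 for Txndc11 (2.33-fold) and 1.02 ± 0.30 for Cyp2b19 (2.03-fold), each with a limma adjusted p of 0.65. The mean of 5 epidermal markers was 4.53 to 5.28 on the skin control arrays and 5.13 to 5.83 at 72 h, and the mean of 5 hair follicle and sebaceous markers was 2.02 to 2.86 and 1.43 to 1.58; their part in these differences was not tested. 6 members were higher in all 3 strains (8.57%, against 14.7%) and 14 lower (20%, against 15.4%), with a median of -0.14 against -0.01.

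**Figure D5:**
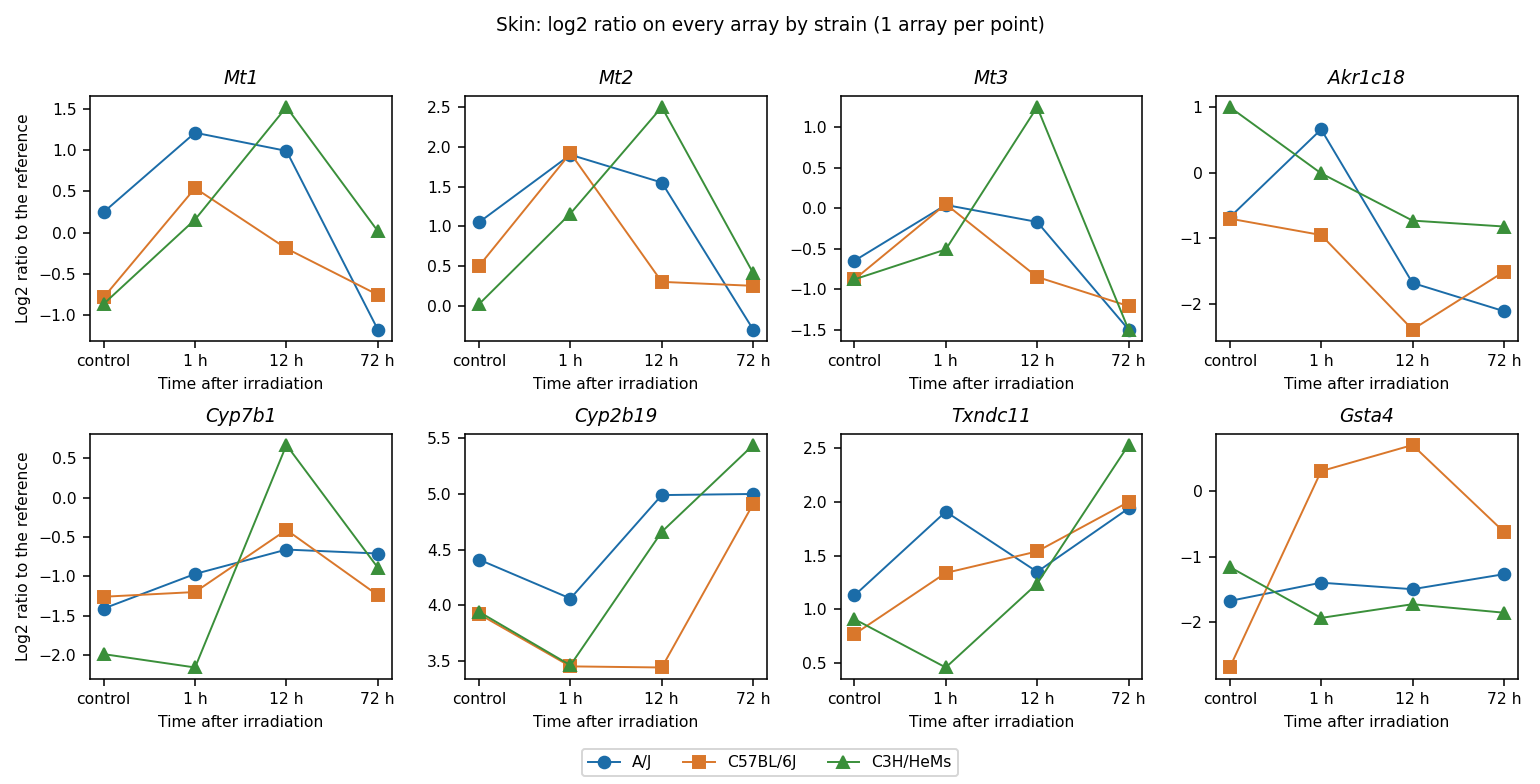
Log2 ratio to the reference in skin by time for members named at 1 h, 12 h or 72 h, 1 line per strain and 1 array per point. Mt1 and Mt2 lie above control at 1 h in all 3 strains (by 1.10 and 1.13 on average), Akr1c18 lies below it at 12 h, and Txndc11 and Cyp2b19 peak at 72 h.

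Some wide gaps between strains in skin lay in the C57BL/6J pools, in several of them or in 1 alone. Gsta4, which conjugates the lipid peroxide product 4-hydroxynonenal, read -2.7, 0.31, 0.71 and -0.62 in C57BL/6J, against -1.68, -1.4, -1.5 and -1.27 in A/J and -1.16, -1.94, -1.73 and -1.86 in C3H/HeMs. All 3 irradiated C57BL/6J pools were thus above every other array and their control below every other. Gsta4 had the smallest p of the members for a response that differed between strains (limma adjusted p = 0.651), a test with 7 members at an unadjusted p under 0.05 (10%, against 3.35%) and 2 in lung (2.86%, against 2.25%). Cyp2e1 stood at -0.09 in C57BL/6J at 12 h and between -4.99 and -1.82 on the other skin arrays, and Gstt2 at -1.06 there. Markers of several other cell types also stood apart on that array: the mean of 7 adipocyte markers was 2.37, against 0.52 to 1.60 on the other skin arrays, that of 14 T, NK and B cell markers 0.00, against -1.33 to -0.72, that of 8 macrophage and monocyte markers 1.26, against -0.27 to 0.67, and that of 9 endothelial markers -0.36, against -1.51 to -0.84. Their part in these values was not tested.

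Between tissues, the differences in response were not called for any member. The smallest adjusted p, 0.367 by limma, was shared at 72 h by Cyp2d9 (skin minus lung -1.62 ± 0.45), Txndc11 (1.34 ± 0.40) and Cyp2b19 (1.20 ± 0.38), in a test that 0% of all features passed at any of the 3 times. At an unadjusted p under 0.05 there were 4 members at 1 h (5.71%, against 2.01%), 7 at 12 h (10%, against 8.42%) and 6 at 72 h (8.57%, against 12.8%). At 12 h Sult1d1, Cyp2a12 and Cyp2d9 stood at -1.21, -0.98 and -1.23 (adjusted p = 0.542). The doses differed, 10 Gy in lung and 30 Gy in skin, and tissue and dose cannot be told apart.

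Genes that work with the members were read from lists of pathway partners. Of 18 measured genes of glutathione synthesis and the NRF2 pathway, 1 rose in lung: Ephx1, the microsomal hydrolase of epoxides that P450 enzymes form, was 1.8 ± 0.14 above control at 12 h (limma adjusted p = 0.00158) and 1.48 ± 0.14 at 72 h (adjusted p = 0.00826), from 0.19, 0.20, 2.17 and 1.82 in A/J, 0.66, 0.54, 2.17 and 1.86 in C57BL/6J, with 0.51, 0.28, 2.43 and 2.11 in C3H/HeMs. Ephx1 is also a p53 target and stands in that list too. Gclc, the catalytic subunit of glutathione synthesis, was 0.59 ± 0.22 above control at 1 h in lung (adjusted p = 1). The same 1 gene, Ephx1, was the one called of 12 P450 partners and xenobiotic receptors at 12 h and 72 h, and none was called at any time of 10 other phase I and II enzymes, 18 genes of retinoid and steroid handling, or 10 glucocorticoid and metal response genes. At 12 h in lung an unadjusted p under 0.05 was met by 3 of the NRF2 list, 2 of the P450 partners, 1 phase I or II enzyme, 2 genes of retinoid and steroid handling and 0 of the glucocorticoid and metal list, and at 12 h in skin by 4, 2, 2, 1 and 2, beside 12.1% of all features in lung and 6.71% in skin. Of 13 p53 targets, the lung counts that rose were 1 at 1 h, 4 at 12 h and 4 at 72 h, beside 0.0114%, 0.114% and 0.114% of all features called. In skin no gene of these lists passed against control, with 8 p53 targets at an unadjusted p under 0.05 at 12 h.

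Strain differences among the partners were few. Of the NRF2 list 2 were called in lung: Abcc3, an exporter of conjugates, was lower in C57BL/6J than in A/J (-0.79 ± 0.12, limma adjusted p = 0.0179, beside 3.68% of all features), and Gclc was lower in C3H/HeMs than in C57BL/6J (-1.11 ± 0.19, adjusted p = 0.0267, beside 1.82%). Without the 4 lung arrays that stood apart, Abcc3 stood at -0.62 ± 0.13 and no longer passed (adjusted p = 0.11), and Gclc at -1.51 ± 0.11 and passed (adjusted p = 0.0447), whereas with their set as a block neither passed (0.141 and 0.0511). Xdh, xanthine oxidoreductase, a phase I enzyme that can release superoxide, was lower in C3H/HeMs than in A/J in lung (-1.47 ± 0.23, adjusted p = 0.0354, beside 0.423%) and in skin (-1.72 ± 0.25, adjusted p = 0.0374, beside 0.251%). Against C57BL/6J, Xdh in C3H/HeMs was also lower in skin (-1.82 ± 0.25, limma adjusted p = 0.0334, beside 0.183%). The lung difference from C57BL/6J was -0.80 ± 0.23 and did not pass (adjusted p = 0.111). In lung the Xdh difference from A/J was -1.39 ± 0.23 without the 4 arrays (adjusted p = 0.0838) and passed with their set as a block (0.0104). Its lung values were 1.98, 1.13, 2.47 and 2.12 in A/J, 1.63, 1.13, 1.46 and 0.79 in C57BL/6J, with 0.16, 0.19, 1.13 and 0.33 in C3H/HeMs. The C3H/HeMs array at 12 h met the A/J array at 1 h, and all the other C3H/HeMs arrays lay below every A/J array.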

How the data were processed

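RNA was extracted with ISOGEN and RNeasy, per the labels' protocols, and arrays were read with Agilent Feature Extraction, per the submitters' processing notes; its version is not given in the sources used here. The deposited values are log10 ratios of red over green, which the authors' table limits to -2.0 and 2.0. Each was multiplied by 3.3219 to give log2, lung signs were turned, arrays were centred on their median, and probes of 1 gene were averaged. Of 9275 probes, 6433 had 1 symbol, 381 several and 2461 none in the platform annotation, which left 8750 features. limma 3.58.1 (R 4.3.3; lmFit, eBayes) fitted time group and strain to the 12 arrays of a tissue, or all 24 arrays for tissue tests, with Benjamini-Hochberg adjustment over all features and a threshold of 0.05. The code was tested on simulated data. Spot signals were not used here, so precision is limited by the number of arrays.

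The replicate number in the labels stands for the strain, which is the replicate block of the design; arrays of a strain deviated from their group means together in most pairs, at correlations of -0.05 to 0.71 in lung and -0.05 to 0.68 in skin. The p-values measure only the spread between these pools, each of 1 strain, which may in part be technical.

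The members, the lists and the rule for named genes were chosen with earlier results of these data known. The rule took every member that passed, the 6 largest rises and 6 largest falls shared by the 3 strains, the smallest p-values of the strain and tissue tests, the 8 highest and lowest levels, and well-known members. Per3 and the order of times in lung were chosen after their values were seen. Contrasts of neighbouring times and fits without the 4 lung arrays were added after the data were seen. Other scalings, weights, filters, blocks and left-out arrays were tried as alternatives.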

Additional observations from a re-analysis of the deposited data

How the results depend on the processing

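With each single array or strain left out, unscaled or quantile-scaled values, array weights and filters on limit or zero ratios, no member was called after irradiation in any comparison, which says little in a design this small. Without the replicate block, that is with strain dropped from the model, 0 members were called in each comparison with control. With quantile scaling the members' median at 1 h in skin was -0.01, and without C57BL/6J that at 72 h in lung was 0.16. Without the 4 lung arrays that stood apart, the median at 12 h in lung was -0.05, from the C57BL/6J array as the only one left at 12 h. The strain call counted 1 member in lung uncentred or without the time group, 4 with array weights, and 0 with only control and 1 h arrays. In lung the fit without those 4 arrays comes down to that same comparison of strains and is not a separate check. In skin it counted 1 with quantile scaling or without features at exactly 0, 6 with array weights and 0 with only control and 1 h arrays. Over both tissues it counted 3 with the lung array set as a block and 4 without those arrays. Leaving out single arrays gave 0 to 2 called members for strain in lung, 0 to 2 in skin, 2 to 10 over both tissues and 0 to 1 for the difference in strain effect between tissues. The members' median ranged from -0.16 to 0.0, 0.13 to 0.32 and -0.04 to 0.12 at 1 h, 12 h and 72 h in lung, and from -0.27 to -0.06, -0.14 to 0.0 and -0.23 to -0.08 in skin. Cyp2c68 at 1 h in lung was 0.41 and ranged from -0.45, without the C3H/HeMs control, to 1.02, without the A/J control. The cause of these shifts was not tested. Signal over background was not used here, so Cyp3a11 on 5 lung arrays and Akr1c18 on 2, where the ratio was at the limit, are known only as bounds.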

Other observations

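Probes that the annotation gives to several genes of these families were left out of the members, and 7 such probes carry values of their own. Cyp2a5, a P450 known for the metabolism of nicotine and coumarin, shares nearly all of its sequence with Cyp2a4. Both probes for Cyp2a5 and Cyp2a4 gave lung means of -2.16 and -2.05 in A/J, -2.78 and -2.77 in C57BL/6J and -3.41 and -3.35 in C3H/HeMs. The limma adjusted p for strain was 0.0734 for 1 probe and 0.0498 for the other, on the 12 lung arrays, beside 2.95% of all features called. Fits without the 4 lung arrays that stood apart are not given for these probes. In skin the order differed: means were -4.94 and -5.12 in A/J, -5.43 and -5.40 in C57BL/6J, and highest in C3H/HeMs at -4.27 and -4.02. Neither probe passed there (limma adjusted p = 0.117 and 0.093). The probe for Gpx2 and its pseudogene Gpx2-ps1 gave lung means of 1.3 in A/J, 0.55 in C57BL/6J, with C3H/HeMs at 1.1, without a strain call (limma adjusted p = 0.256). The probe for Akr1c12 and Akr1c13 was 0.82 above control at 12 h (limma adjusted p = 0.372) and 0.84 at 72 h (adjusted p = 0.354) in lung.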
